A study of Bos taurus with 9 samples.

Results

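Small RNA carried by extracellular vesicles (EVs) in bovine follicular fluid was compared between medium follicles (6–9 mm in diameter) and small follicles (3–5 mm). The comparison used 3 medium follicle samples (Medium 5, 6 and 8) and 3 small follicle samples (Small 1, 2 and 4) of the 9 samples in the series. All 101889 loci with deposited counts were described by their length, and the named miRNA loci among them were described by name. The named loci were those listed by the study as a known bovine miRNA (204 loci) or as a miRNA known in another species (45 loci), and they carried 225 miRNA names. A further 455 loci listed by the study as predicted miRNA had no name. Each abundance is given on 2 scales. Normalized counts were scaled within the named loci, so that they compare the members of the miRNA population with one another. Values in CPM were scaled by all counted reads of the sample, so that they give the share of a locus in all of the small RNA counted.

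Antral follicles grow as granulosa cells divide and fluid collects around the oocyte, and the fluid holds EVs released by the cells of the follicle or brought in from the circulation. MicroRNAs are short strands, cut from a hairpin and loaded into an Argonaute protein, that lower the translation and stability of messenger RNAs that match their seed. Small RNA libraries from EVs also hold fragments of longer RNAs such as transfer RNA, ribosomal RNA and Y RNA. In granulosa cells, miRNAs such as miR-21, miR-202 and miR-378 are known for roles in survival, gonad function and steroid synthesis.

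Ovaries came from cows at an abattoir, and no treatment was given. Fluid was pooled by follicle size on each collection day, and EVs were isolated by differential ultracentrifugation before total RNA was extracted and 1 small RNA library was made from each pool. A sample therefore represents many follicles and animals, healthy and regressing follicles were not separated in the labels, and the samples of a size are separate pools. Counts summed to 14664460, 8941598 and 10172365 in Small 1, 2 and 4, and to 12073574, 11685567 and 10641765 in Medium 5, 6 and 8. The smallest CPM that 3 counts allow was from 0.205 to 0.335, which covers counting error only. The library Medium 8 stood apart from the other medium samples. It had 4128 loci without a count, against 318 in Medium 5, 577 in Medium 6 and from 2955 to 8842 in the small samples. Over all loci, the Pearson correlation of its log2 CPM was 0.903, 0.878 and 0.920 with Small 1, 2 and 4, and it was 0.867 with Medium 5 and 0.788 with Medium 6. Within the named miRNA the order was only partly different. Medium 8 correlated at 0.967 with Medium 5 and at 0.944 with Medium 6, and at 0.917, 0.922 and 0.953 with Small 1, 2 and 4. Its value with Small 4 was thus above that with Medium 6. Results that rest on Medium 8 are given with and without it.

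The labelled tissue was checked against miR-202, a miRNA of the gonads, whose presence does not show which cells released the vesicles. Its 3p strand was present at 3039, 2189 and 3738 CPM in the small samples and at 533, 621 and 2466 CPM in the medium samples. The granulosa-associated miR-21-5p was present in all 6 samples as well, at 4607, 3341 and 3871 CPM in the small samples and 464, 617 and 776 CPM in the medium samples.

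Named miRNA made up a smaller share of the small RNA in medium follicle EVs. They took 23.1%, 14.1% and 26.9% of counts in Small 1, 2 and 4, and 3.88%, 3.75% and 11.2% in Medium 5, 6 and 8. Each medium sample was below each small sample, and Medium 8 was the nearest to the small samples. The means were 21.4% ± 6.59 in small and 6.28% ± 4.27 in medium follicles (SD, n = 3), a difference of -15.1 percentage points (exact permutation test, two-sided, p = 0.1, the smallest p that 3 against 3 samples allow). Without Medium 8 the medium mean was 3.81%. Because these are shares of 1 total, less miRNA per vesicle and more of the other RNA cannot be told apart. Predicted miRNA differed in the other direction, from 0.929%, 0.836% and 0.882% in the small samples to 1.84%, 1.62% and 1.38% in the medium samples, again without overlap (exact permutation test, two-sided, p = 0.1, n = 3 per group). This was not particular to predicted miRNA. The median log2 fold change in CPM was 1.26 for them and 1.29 for well-counted loci outside the miRNA tables.

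**Figure D1:**
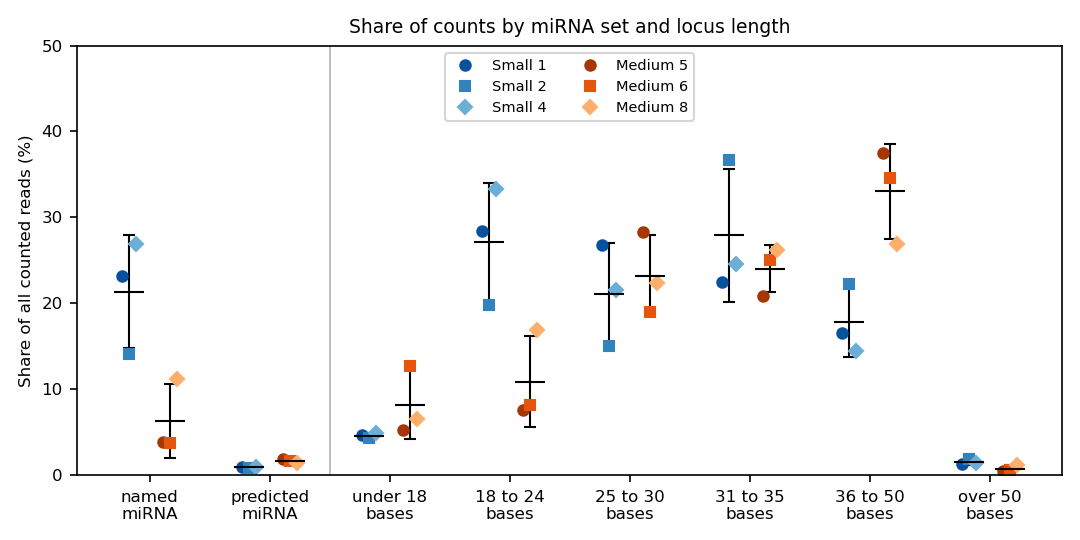
Share of all counted reads (%) on named miRNA loci, on predicted miRNA loci and in 6 classes of locus length, for the 3 small (blue) and the 3 medium (orange) follicle samples. Points are samples, and bars are the mean ± SD (n = 3). Named miRNA and loci of 18 to 24 bases are lower, and loci of 36 to 50 bases higher, in each medium sample than in each small sample.

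The length of the loci showed where the counts lay. The lengths are those of the counted region of each locus, not of single reads. Loci of 18 to 24 bases, the length of mature miRNA, held 28.4%, 19.8% and 33.3% of counts in the small samples and 7.59%, 8.09% and 16.9% in the medium samples. Loci of 36 to 50 bases held 16.5%, 22.3% and 14.4% in the small samples and 37.5%, 34.6% and 26.9% in the medium samples. These classes differed in opposite directions, by -16.3 and 15.3 percentage points, and the groups overlapped in neither. Loci over 50 bases were lower in medium follicles as well, at 1.53% ± 0.337 against 0.714% ± 0.399 (SD, n = 3). Each of these differences had an exact permutation p of 0.1 and, over the 6 length classes, an adjusted p of 0.15. The classes of 25 to 30 bases (21.1% ± 5.88 in small and 23.2% ± 4.74 in medium follicles) and of 31 to 35 bases (27.9% ± 7.71 and 24.02% ± 2.78) overlapped between the groups, with an exact permutation p of 0.7 each.

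Within the 18 to 24 base class, the difference lay mostly on the named miRNA. Loci of this length outside the miRNA tables held 5.13%, 5.68% and 6.36% of counts in the small samples and 3.68%, 4.34% and 5.72% in the medium samples. These ranges overlapped through Medium 8 (exact permutation test, p = 0.3). With the named miRNA taken out of the total, this length held 7.51% in small and 4.98% in medium follicles on average (exact permutation test, p = 0.1). The overlap thus depended on the total used. By single length, loci of 22 bases were the main peak in small follicles, with 13.7%, 8.75% and 15.8% of counts, and they held 2.82%, 2.60% and 6.70% in medium follicles. Loci of 21 and 23 bases were lower in medium follicles too, at 0.661% against 2.61% and at 2.28% against 5.77% on average. Among single lengths from 25 to 35 bases, some were lower and some higher. Loci of 25 bases (11.5% in small and 6.13% in medium follicles on average) and 33 bases (10.02% and 5.36%) were lower, and those of 27 bases (4.18% and 6.18%), 28 bases (1.90% and 4.01%), 30 bases (1.70% and 3.63%) and 35 bases (2.56% and 4.42%) were higher. The length at the middle of the counts was 25, 32 and 26 bases in the small samples and 33, 33 and 32 bases in the medium samples.

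Of the 15.3 points by which the class of 36 to 50 bases was higher, 14.9 lay at 39 to 41 bases, a range chosen after the shares by length were seen and given without a test. The 3618 loci of this length held 11.3%, 13.3% and 9.67% of counts in the small samples and 31.5%, 26.3% and 21.3% in the medium samples. The mean difference was 17.4 points without Medium 8. Loci of 40 bases alone went from 8.04% ± 1.16 to 18.5% ± 3.40. The gain was spread over many loci of like size. The 3618 loci lay on all 31 sequences of the table (autosomes, X and mitochondrial genome), 1926 on the plus and 1692 on the minus strand, and no single locus held more than 0.0849% of a sample's counts. Of the loci of 40 bases with a mean of at least 100 counts in a size group (1104 loci), the quartiles of the summed count over the 6 samples were 9279 and 9682. Their log2 fold changes in CPM were as close, with quartiles of 1.23 and 1.29. How reads that match several places in the genome were assigned is not given in the sources used here, so loci of such like counts may share reads. Loci of 42 to 50 bases did not share in the gain. Those of 43 bases held 0.304% of counts in small and 0.150% in medium follicles, and 34 of 54 well-counted loci of that length fell.

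**Figure D2:**
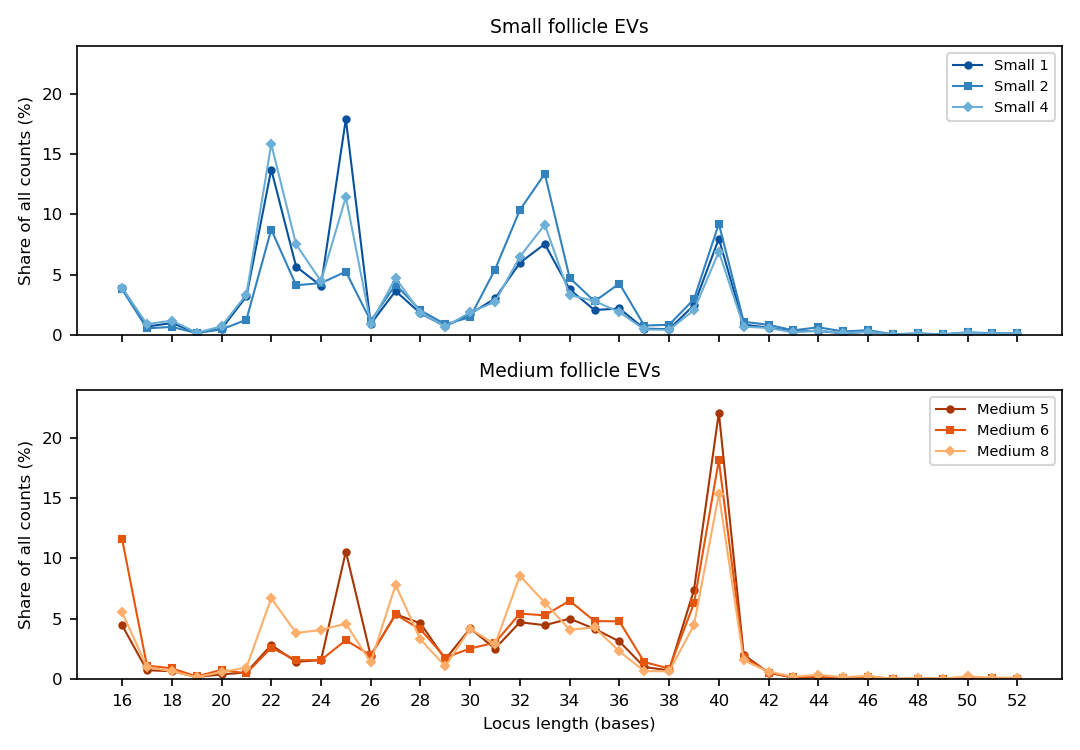
Share of all counts (%) by locus length in bases, from 16 to 52, for the 3 small follicle samples (upper panel) and the 3 medium follicle samples (lower panel). Each line is a sample. The peak at 22 bases reaches 15.8% in small and 6.70% in medium follicles, and the peak at 40 bases reaches 9.23% in small and 22.1% in medium follicles.

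Single loci were then tested on the CPM scale. Of the 85601 loci tested with edgeR's quasi-likelihood test, 24032 (28.1%) rose and 2332 (2.72%) fell in medium follicles at a false discovery rate (FDR) under 0.05, and the median log2 fold change was 1.49. Most loci had few counts, since 81500 of the 101889 averaged under 30 over the 6 samples. Among the 11770 loci with a mean of at least 100 counts in a size group, fitted alone, the median was 1.29. Loci of 36 to 50 bases rose most often, with 7099 higher and 463 lower of 19261. The calls did not follow the shares in every class. Among loci of 31 to 35 bases, whose share overlapped between the groups, 11413 (25.9%) rose and 691 (1.57%) fell of 44088. That is close to the 28.1% and 2.72% of all loci tested, of which this class is the largest. Among loci of 18 to 24 bases, whose share was lower in medium follicles, 568 (11.4%) rose and 539 (10.8%) fell of 4978. Their median log2 fold change was 1.08. The well-counted loci of this length went the other way. Of the 514 outside the miRNA tables with a mean of at least 100 counts in a size group, 132 (25.7%) rose and 162 (31.5%) fell. Their median was -0.71. Loci over 50 bases went the other way, with 20 higher and 114 lower of 450 and a median log2 fold change of -0.84. Of the 455 predicted miRNA loci, 350 (76.9%) rose and 12 (2.64%) fell. Their log2 fold changes were close together, with a median of 1.26 and quartiles of 1.17 and 1.36. The study kept these loci for a mean of at least 100 counts in a size group. Of the 11066 loci outside the miRNA tables with such a mean, 53.3% rose and 8.77% fell, with a median of 1.29. Of the 76 mitochondrial loci tested, 0 rose and 5 fell. They held 0.0570% and 0.0759% of counts in Medium 5 and 6, below the 3 small samples, and 0.265% in Medium 8, above them.

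The direction of these calls depended on the scaling. With the TMM method over all loci, which sets most loci to no change, the median was 0.05, and 9 loci (0.0105%) rose and 1246 (1.46%) fell. The number of calls also depended on single libraries. Without Medium 8, 67620 loci (69.3%) rose and 4698 (4.81%) fell of 97588 tested. Without Small 1, Small 2, Small 4, Medium 5 or Medium 6, the calls in both directions came to 95, 12843, 193, 44 and 56.

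Of the loci outside the miRNA tables, 1 held most of the counts of its length class. This locus of 16 bases on the plus strand of chromosome 29 (834909 to 834924, UMD3.1) had 31532, 33929 and 33358 CPM in the small samples and 41378, 112554 and 51678 CPM in the medium samples, and it rose (log2 fold change 1.06 ± 0.25 (SE), edgeR FDR = 0.0157). Medium 6 was far above the other medium samples, and loci under 18 bases as a class held 12.7% of its counts against 5.20% and 6.54% in Medium 5 and 8. That class held 4.60% ± 0.252 of counts in small and 8.16% ± 4.02 in medium follicles (SD, n = 3), and the difference was gone (-0.0547 percentage points) without the 10 highest loci outside the named miRNA, this one included. A locus of 31 bases on chromosome 4 (112931232 to 112931262, UMD3.1) had 14910, 38176 and 14363 CPM in the small samples and 4650, 7821 and 12995 CPM in the medium samples, and it fell (log2 fold change -1.41 ± 0.36, edgeR FDR = 0.0190). The highest locus over 50 bases, of 55 bases on chromosome 18 (58243270 to 58243324, UMD3.1), fell from 1122, 1455 and 1100 CPM to 218, 290 and 609 CPM (log2 fold change -1.72 ± 0.30, edgeR FDR = 0.0121). None of these loci is identified by the deposited table beyond its position, and an annotation of UMD3.1 was not used here.

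A group of 7 loci of 25 bases on chromosome 25 (between 32465610 and 32471145, UMD3.1), whose counts lay within 5% of one another, made up much of the 25-base peak. Together they held 14.8%, 3.09% and 8.70% of counts in the small samples and 8.84%, 1.84% and 2.78% in the medium samples. The groups overlapped. The highest of the 7 had an edgeR FDR of 0.0955.

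The named miRNA stood on the other side of the calls. On the CPM scale 0 of the named loci rose and 160 fell, which is 64.3% of them beside 2.72% of all loci tested. Their median log2 fold change was -1.80 beside 1.49 for all loci, and 245 of them had a value below 0. In 148 named loci each medium sample was below each small sample, and in 0 it was above, beside 3.82% below and 37% above among all loci tested. Without Medium 8, 231 named loci fell and 0 rose, with a median of -2.45. The numbers without another library were 24 (Small 1), 158 (Small 2), 38 (Small 4), 17 (Medium 5) and 20 (Medium 6), again with 0 that rose. The named loci had been kept by the study for a mean of at least 100 counts in a size group. Of them 248 met that in small and 172 in medium follicles, and 0 met it in medium follicles but not in small, so the list itself favours miRNAs that are lower in medium follicles. Among the 209 loci with a mean of at least 100 counts over the 6 samples, the median was -1.76 and 137 fell. That mean includes the small samples, so this subset can favour the same miRNAs and does not remove the preference of the list.

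Lower shares were found among miRNAs of every level. Of the 63 named loci with the lowest summed counts (143 to 955 over the 6 samples), 33 fell, and of the 62 with the highest (26620 or more), 45 fell, with medians of -1.83 and -1.81. The miRNA with the highest summed count, miR-10b, which lies in a Hox gene cluster, was first in each small sample and below miR-22-3p in each medium sample, and it went from 24227, 13171 and 30946 CPM to 2272, 2077 and 7132 CPM (log2 fold change -2.57 ± 0.48 (SE), edgeR FDR = 0.0121). The largest decreases were those of miR-145-3p, at 41.7, 8.72 and 48.7 CPM against 1.24, 0.685 and 3.57 CPM (-4.17 ± 0.88, edgeR FDR = 0.0121), and of miR-335, at 1135, 866 and 637 CPM against 36.4, 56.8 and 55.3 CPM (-4.15 ± 0.44, edgeR FDR = 0.00043). Only 4 named loci had a CPM fold change above 0. They were miR-34b-3p (0.54), miR-150 (0.52), miR-92b (0.22) and miR-375 (0.18), none with an edgeR FDR under 0.525.

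**Figure D3:**
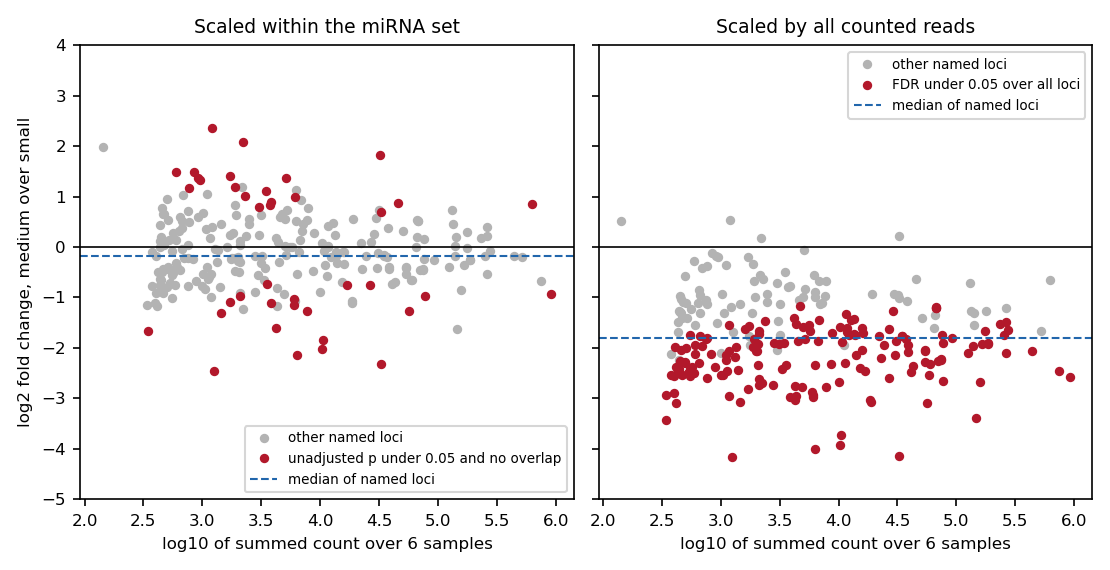
Log2 fold change of medium over small follicle EVs against the log10 of the summed count over the 6 samples, for the named miRNA loci, with counts scaled within the miRNA set (left) and by all counted reads (right). Red points have an unadjusted p under 0.05 without overlap of the samples (left, 20 higher and 20 lower) or an FDR under 0.05 over all loci (right, 160 loci). The dashed line is the median of the named loci, -0.17 on the left and -1.80 on the right.

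Scaled within the set, the counts were concentrated on few loci to a like degree in both sizes. The 10 highest loci of each sample held 49.1%, 48.5% and 50.5% of the named miRNA counts in the small samples and 45.7%, 47.8% and 50.4% in the medium samples. The median log2 fold change over the named loci was -0.17, with 105 values above 0 and 144 below. With edgeR's quasi-likelihood test, 0 of the named loci passed an FDR of 0.05 in either direction, and the smallest FDR was 0.0676. An unadjusted p under 0.05 was found for 44 loci, 22 higher and 22 lower (8.84% each), and 16 loci had an FDR under 0.1, 8 higher and 8 lower (3.21% each). In 29 loci (11.6%) each medium sample was above each small sample, and in 42 loci (16.9%) it was below. The count of calls depended on the test. The exact test of edgeR called 16 loci at an FDR under 0.05, 8 higher and 8 lower, of which 15 were among the 16 above, and DESeq2 called 28, 19 higher and 9 lower. The fold changes of single miRNAs given next are on this scale, and none passed an FDR of 0.05 in the quasi-likelihood test.

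The miRNAs that were lower within the set were led by miR-145-3p, miR-335, miR-19a and miR-19b. MiR-145 comes from the miR-143/miR-145 gene, abundant in smooth muscle and fibroblasts. MiR-19a and miR-19b belong to the miR-17-92 cluster, known from dividing cells. MiR-335 is encoded in an intron of the imprinted gene MEST. MiR-145-3p (chromosome 7, 62810788 to 62810808, UMD3.1) had normalized counts of 188.2, 66.4 and 180.1 in the small samples and 27.5, 18.2 and 32.02 in the medium samples (-2.46 ± 0.64, edgeR FDR = 0.0676). Its medium values rested on 15, 8 and 38 counts. MiR-335 (chromosome 4, 95071006 to 95071028) had 5116, 6592 and 2359 against 807, 1513 and 495 (-2.32 ± 0.52, edgeR FDR = 0.0676), and its opposite strand, miR-335-3p, had 634, 550 and 405 against 156, 114 and 249.4 (-1.61). Both strands of miR-335 were thus lower in each medium sample. MiR-19a (chromosome 12, 66226884 to 66226906) had 1257, 579 and 455 against 205, 207 and 112 (-2.13). MiR-19b, listed at chromosome 12 (66227186 to 66227208) and at chromosome X (17918013 to 17918035) with counts that may include the same reads, had fold changes of -2.02 and -1.84. For the copy on chromosome 12 the values were 1689, 874 and 1154 against 350, 362 and 209, the lowest unadjusted p of the set (edgeR FDR = 0.0676). These miRNAs stayed lower with each sample left out in turn, with a range from -2.30 to -1.57 for miR-19a and from -2.85 to -2.00 for miR-335. MiR-130a had 7137, 5736 and 7596 against 3342, 2905 and 2294 (-1.26 ± 0.34, edgeR FDR = 0.0676). MiR-146b, a miRNA induced by inflammatory signals, had 1121, 957 and 760 against 257, 408 and 515 (-1.26). The other members of this group were miR-1388-3p (-1.66), miR-1388-5p (-1.30), miR-199b-3p (-1.15) and miR-32 (-1.11), with FDR values from 0.0884 to 0.212.

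The miRNAs that were higher within the set were led by miR-34b-3p and miR-375. MiR-34b is a p53 target that is also abundant in multiciliated cells, and miR-375 is known from endocrine and epithelial cells. MiR-34b-3p (chromosome 15, 22134774 to 22134796) had normalized counts of 63.3, 24.7 and 96.1 in the small samples and 508, 132 and 313 in the medium samples (2.36 ± 0.65, edgeR FDR = 0.0680). MiR-375 (chromosome 2, 107667524 to 107667545) had 149, 55.4 and 184 against 977, 244 and 437 (2.09 ± 0.56, edgeR FDR = 0.0676). In both, Medium 5 was the highest sample and Medium 6 the lowest of the medium samples, and the groups did not overlap. MiR-92b (chromosome 3, 15480739 to 15480760), which shares its seed with miR-92a, had 1648, 1030 and 3120 against 6091, 4559 and 9988 (1.83 ± 0.57, edgeR FDR = 0.109). MiR-204, known from retinal and other epithelia, had 186, 590 and 453 against 689, 1037 and 1460 (1.38). MiR-424-3p had 137, 75.8 and 146 against 336, 193.6 and 421 (1.40), and the 2 adjoining loci of miR-450a, on the same X-linked cluster, had 1.37 and 1.34. MiR-1343-3p (1.49), miR-328 (1.49), miR-30f (1.20), miR-331-3p (1.17) and miR-484 (1.11) made up the rest of the group. On the CPM scale these 12 loci lay between -0.49 and 0.54, and none of them was called on that scale.

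**Figure D4:**
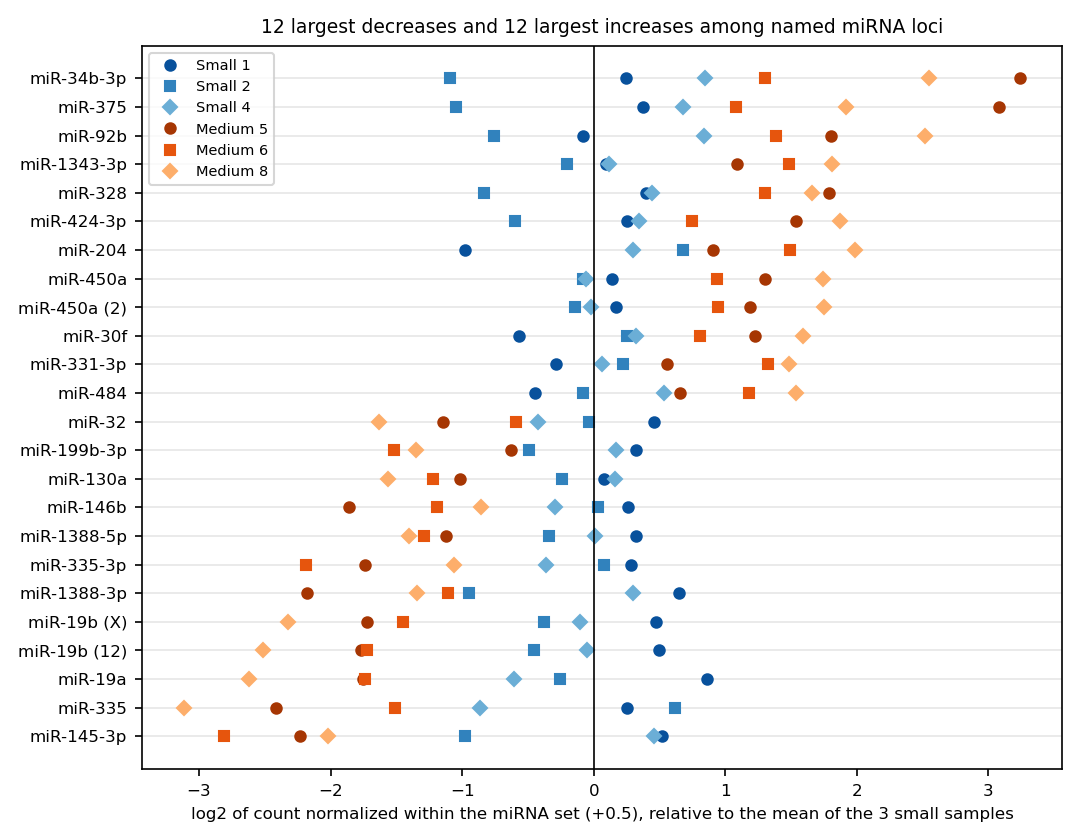
Normalized counts of the 12 named miRNA loci with the largest decrease and the 12 with the largest increase within the set, among loci with an unadjusted p under 0.05 and no overlap. Each point is a sample, plotted as the log2 of the count normalized within the set (plus 0.5) less the mean of the 3 small samples. Medium samples (orange) of the upper 12 loci all lie to the right of the small samples (blue), and those of the lower 12 all lie to the left. Chromosomes are given for the copies of miR-19b, and (2) marks the second copy of miR-450a.

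The most abundant miRNAs differed less. MiR-10b, the first in the small samples, had normalized counts of 109251, 100309 and 114531 in the small samples and 50289.8, 55290.5 and 63956 in the medium samples, without overlap (-0.93 ± 0.30, edgeR FDR = 0.115). MiR-22-3p, known from the regulation of steroid receptors and growth signals, went the other way. It had 58388, 43054 and 55049 against 76218, 74229 and 133963 (0.86 ± 0.35, edgeR FDR = 0.207), with the highest value in Medium 8, and without that sample its fold change was 0.53. The other abundant loci overlapped between the sizes. They were miR-27b (-0.68), miR-25 (-0.53), miR-423-5p (-0.21), miR-148a (-0.18), miR-92a (-0.07 on chromosome 12 and -0.17 on chromosome X), let-7f (0.21) and miR-191 (0.41).

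The members of marker lists for cell types that a vesicle preparation could hold were compared next. Of the 8 loci of the smooth muscle and fibroblast miRNAs (miR-143, miR-145, miR-199 and miR-214), all 8 had a fold change below 0 within the set, with a median of -1.05 beside -0.17 for all named loci, and 5 were lower at an unadjusted p under 0.05, beside 8.84% of all named loci, while 0 were higher at that p. Their summed normalized counts were from 7385 to 24954 in the small samples and from 3324 to 9068 in the medium samples, which overlap because Small 2 was low. MiR-143, the most abundant of them, had 21963, 5667 and 20346 against 7420, 2399 and 5709 (-1.63, unadjusted p = 0.0137, edgeR FDR = 0.137). On the CPM scale all 8 fell, beside 64.3% of all named loci. Among the 8 are both loci of miR-199a-3p and the locus of miR-199b-3p, with summed counts of 6005, 6087 and 6038. These loci may count the same reads, so they may not be separate members in the numbers above. MiR-199a-5p, whose copies had values of -0.22 and -0.04, was the member that differed least.

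Epithelial markers were mixed. Of 6 loci, 3 were above 0 and 3 below, with a median of 0.22. MiR-375 and miR-200b-3p (1.18, unadjusted p = 0.0582) were the highest, and miR-429 (-0.59) and miR-200a (-0.24) the lowest, although miR-200a, miR-200b and miR-429 come from 1 cluster on chromosome 16. Summed normalized counts were from 725 to 1251 in the small and from 1041 to 2469.6 in the medium samples. Markers of multiciliated epithelium, which lines the oviduct and not the follicle, were also mixed, with miR-34b-3p and miR-34c (872, 350.1 and 342.003 against 2306, 734 and 415, 1.14, unadjusted p = 0.123) above 0 and miR-449a (-0.84) and miR-34a (-0.79) below. Their sums were from 524 to 1183 and from 821 to 2955, with the highest value of each list in Medium 5. No defining marker of these lists was at 0 in any of the 6 samples. The part of such cells in the values of miR-34b-3p and miR-375 was not tested.

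Blood cell miRNAs did not separate the sizes. Of the 6 loci, 5 were above 0 with a median of 0.27, and the groups overlapped in all 6. The red cell miRNA miR-451 had normalized counts of 87.9, 183 and 9.82 in the small samples and 112, 219 and 69.1 in the medium samples. The other red cell marker, miR-486, had 479, 2140 and 229 against 1164, 2488 and 1200 (0.77, unadjusted p = 0.272). Both were highest in Medium 6 and, among the small samples, in Small 2. MiR-150, a lymphocyte miRNA, had the largest value of the list (1.99, unadjusted p = 0.0461), but it rested on 27, 8 and 25 counts in the small samples and 23, 1 and 59 in the medium samples. The liver and gut miRNAs miR-192 (-0.66) and miR-215 (-0.92) were below 0 and both copies of miR-194 (0.14 and 0.66) above.

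**Figure D5:**
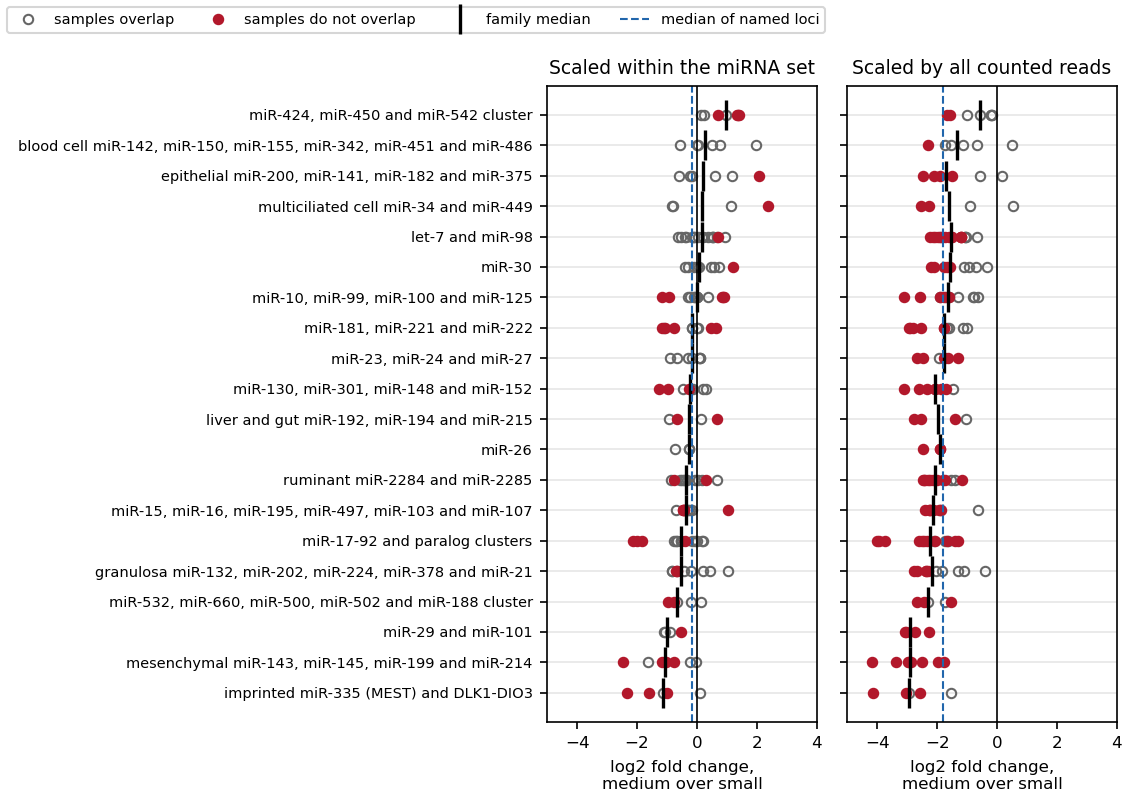
Log2 fold change of medium over small follicle EVs for the members of 20 miRNA families and marker lists, with counts scaled within the miRNA set (left) and by all counted reads (right). Circles are loci, filled where the 3 medium and the 3 small samples do not overlap, black bars are family medians, and the dashed line is the median of the named loci. The family medians lie between -1.14 and 0.96 on the left, and on the right all of them are below 0.

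Members of the same primary transcript did not always move together. In the miR-17-92 cluster of chromosome 12 (7 loci between 66226567 and 66227324, UMD3.1), fold changes within the set ran from -2.13 for miR-19a to 0.02 for miR-17-5p. MiR-18a (-0.71), miR-17-3p (-0.78) and miR-20a (-0.65) lay between them, each with overlap, and miR-92a was at -0.07. With the paralogous clusters included (14 loci), the family median was -0.54, and 3 loci, all of miR-19, were lower at an unadjusted p under 0.05, beside 8.84% of all named loci. On the CPM scale 13 of the 14 fell, beside 64.3% of all named loci. MiR-92b, encoded apart on chromosome 3, had the opposite direction within the set (1.83).

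The X-linked cluster of miR-424, miR-450 and miR-542 (7 loci between 18178955 and 18185514, UMD3.1), which includes a relative of miR-16 known to inhibit the cell cycle, had 7 values above 0 within the set, with a median of 0.96 beside -0.17 for all named loci. In 4 of the 7 each medium sample was above each small sample (11.6% of all named loci), and 0 passed an FDR of 0.05. Of the 7 loci, 5 were higher at an unadjusted p under 0.05 (8.84% of all named loci) and 3 at an FDR under 0.1 (3.21%). The 2 loci of miR-450a, with summed counts of 913 and 955, are among these and may count the same reads. MiR-450b, its most abundant member, had 2735, 2417 and 3687 in the small samples and 5302, 3932 and 5115 in the medium samples (0.70). MiR-424-5p, the strand with the seed of the miR-16 family, differed least, with 245, 398 and 120 against 266, 421 and 146 (0.12), while the opposite strand miR-424-3p was the highest of the cluster (1.40). On the CPM scale the values of all 7 were below 0, with a median of -0.58, so the direction was reversed by the scaling. Of the 7, 2 fell on that scale, beside 64.3% of all named loci. Another X-linked group, miR-532, miR-660, miR-500, miR-502 and miR-188, was lower in 4 of 5 loci (median -0.65), and miR-660 had 8894, 5959 and 11315 against 4349, 3768 and 5194 (-0.98, unadjusted p = 0.0103).

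The let-7 family and miR-98, which restrain growth genes as cells differentiate, were close to the whole set. Of 18 loci, 11 were above 0 and 7 below, with a median of 0.17, and 0 had an unadjusted p under 0.05. Let-7a-5p, at 3 loci, had values from 0.52 to 0.55, and let-7b was at 0.03. The spread between samples of 1 size was wide, as in let-7f with 25812, 49517 and 18657 in the small samples and 31536, 53163 and 24390 in the medium samples. The miR-30 family had a median of 0.07, with miR-30a-5p at -0.01 and miR-30f at 1.20.

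Of the miRNAs known from granulosa cells (10 loci), 7 were below 0 with a median of -0.55, and 0 had an unadjusted p under 0.05. The values of miR-21-5p were 20775, 25446 and 14327 in the small samples and 10269, 16423 and 6958 in the medium samples (-0.85, unadjusted p = 0.0834), with overlap through Medium 6. The 2 loci of miR-378, which acts on aromatase in granulosa cells, had -0.66 and -0.69, and each medium sample was below each small sample. MiR-202-3p (0.19), miR-224 (0.45) and miR-132 (1.04, unadjusted p = 0.252), the latter induced by gonadotropin, were above 0. On the CPM scale 7 of the 10 fell, close to the 64.3% of all named loci, and miR-202-3p (-1.31), miR-224 and miR-132 were the ones that did not pass.

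Other families lay between these. Both miR-125b copies and miR-125a, homologs of lin-4, were higher without overlap (0.89, 0.84 and 0.88), while miR-10a (-0.07), miR-99a-5p (0.01) and miR-100 (-0.30) of the same list were near or below 0. The pair miR-29 and miR-101, both known as repressors of matrix or chromatin genes, had a median of -0.99 over 4 loci, with 0 at an unadjusted p under 0.05. The miR-15, miR-16 and miR-103 families had a median of -0.37, and miR-195-3p (1.02) was the only one of their 10 loci above 0. In the imprinted group, the large values of miR-335 were not shared by all members, since miR-127 was at 0.11. MiR-410 (-1.14) and miR-411a (-1.01) had few counts, with 0 of miR-410 in Medium 6, and an unadjusted p of 0.281 and 0.192. The 12 ruminant miR-2284 and miR-2285 loci had a median of -0.36, with miR-2284x, the most abundant, at 0.32.

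The ratio of both strands of a hairpin does not depend on any scaling between samples. In 46 pairs of neighbouring named loci on 1 strand of the genome, less than 50 bases apart, the log2 ratio of the more abundant locus to the other was compared. In 10 pairs the groups did not overlap (exact permutation test, two-sided, p = 0.1 each, the smallest possible, n = 3 per group), and 0 passed after Benjamini-Hochberg adjustment over the 46 pairs (smallest adjusted p by exact permutation = 0.46). In 7 of them the more abundant strand had a lower lead in medium follicles. The largest change was in miR-195, where the lead over miR-195-3p was 3.31, 3.81 and 2.64 in the small samples and 2.10, 1.65 and 1.02 in the medium samples. MiR-199a-3p had a smaller lead over miR-199a-5p at both of its loci, by a difference of -1.11 on chromosome 7 and -0.83 on chromosome 16, copies that may count the same reads. MiR-361 (-1.09), miR-331 (-1.26), miR-125b-3p (-0.97) and miR-181a (-0.80) had the same direction. In the other 3 pairs the lead was larger in medium follicles. It was 4.27, 4.70 and 4.26 for miR-125a over miR-125a-3p in the small samples and 5.63, 5.66 and 5.44 in the medium samples. The differences for let-7a-5p over let-7a-1-3p and for miR-28-3p over miR-28 were 1.16 and 1.18. Let-7a-5p, miR-181a and miR-125b are also listed at other loci with close counts. Their ratios may thus include reads of another hairpin.

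The values were also grouped by the length and place of the miRNA loci, without a test. Within the set the medians were -0.26 for the 111 loci of 22 bases, -0.32 for the 19 of 21 bases, -0.09 for the 9 of 16 to 20 bases, -0.00 for the 72 of 23 bases and 0.01 for the 38 of 24 to 30 bases. The share that fell on the CPM scale was 82 of 111 loci at 22 bases, 12 of 19 at 21, 39 of 72 at 23, 21 of 38 at 24 to 30 and 6 of 9 at 16 to 20 bases, and the CPM medians ran from -2.13 at 21 bases to -1.62 at 24 to 30. The 37 loci on chromosome X had a median of -0.06 and those on the autosomes -0.18. Copies of some names had nearly the same values, such as -0.44 and -0.45 for miR-103 and -0.27 and -0.26 for miR-26a, and such copies may count the same reads. Others were further apart, such as the 5 copies of miR-2285k, from -0.85 to -0.32.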

How the data were processed

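Follicular fluid EV small RNA of 9 pools was sequenced in single reads on an Illumina instrument. BWA 0.7.5a and the genome build UMD3.1 are named in the submitters' processing notes. After adapter removal and mapping, the authors set loci on the merged reads of all samples and trimmed each to its dense part. The deposited table gives a raw count per trimmed locus and sample, not normalized. Libraries were amplified by PCR and had no molecular identifiers, so depth limits cover counting error only. RNA input varied between samples and is not given per sample in the sources used here.

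Groups came from the follicle size in the labels. Names were joined by locus number from the study's lists, whose fold change and p-value columns were not used. Counts were fitted in R 4.3.3 with edgeR 4.0.16 (glmQLFit and glmQLFTest, two-sided) in 1 model of the 3 size groups over 9 samples, so that the spread also rests on the 3 large follicle samples (over 9 mm). The named set was scaled by TMM over its own loci without a filter. All loci were scaled by the total count, without TMM factors, after filterByExpr. The FDR is by Benjamini-Hochberg over all loci of each fit. Log2 fold changes are medium over small, with their standard error (SE). Shares were compared by exact permutation in Python 3.11.15, and figures were drawn with matplotlib 3.10.9. Fits were tested on simulated data.

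Alternatives were DESeq2 1.42.0, edgeR's exact test, other size factors and filters, FDR under 0.1, 1 locus per name, the 6 samples alone and each sample left out. The class of 39 to 41 bases was added after the data were seen. Named miRNAs are the 10 highest, the 12 largest rises and 12 largest falls within the set (unadjusted p under 0.05, no overlap), and the highest and most changed locus of each of 20 families. Other members of these families, clusters and strand pairs, and the group on chromosome 25, stand outside this rule, with values already seen. The loci, families and lists were chosen with earlier results of these data known.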

Additional observations from a re-analysis of the deposited data

How the results depend on the processing

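The study reports independent collections that each gave fluid of every follicle size, so small and medium samples may share a collection. The labels do not give the collection of a sample, so no paired analysis was made. Within the named miRNA, Small 1, 2 and 4 correlated best among the medium samples with Medium 5, 6 and 8, in that order. The values were 0.951, 0.967 and 0.953. Whether these are pairs of 1 collection was not tested. If samples are paired, an overlap between the sizes can hide a difference within pairs. All tests therefore treated the samples as unpaired. The lower share of named miRNA in medium follicles kept its direction under each alternative, with a difference from -26.0 percentage points among loci of 18 to 30 bases to -12.3 without Small 4. With 1 sample left out, it ran from -18.7 to -12.3. The classes of 18 to 24, 36 to 50 and over 50 bases kept their direction in each alternative as well. The difference of the class under 18 bases was -0.0547 without the 10 highest loci outside the named miRNA, and from 1.28 (without Medium 6) to 5.04 with 1 sample left out. That of the class of 25 to 30 bases was -2.43 without the named loci and from -0.931 (without Small 2) to 4.93 with 1 sample left out, and it was -0.453 without Medium 5. That of the class of 31 to 35 bases was from -6.59 to 0.547, the last without Small 2. The share of loci of 39 to 41 bases was higher by 12.4 to 17.4 points with 1 sample left out.

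Calls within the named set came to 16 at an FDR under 0.1, 16 with edgeR's exact test and 28 with DESeq2, and to 0 with the other size factors, the filter, 1 locus per name, the 6 samples alone and each sample left out. Calls over all loci came to 54407 at an FDR under 0.1, 1255 with TMM, 1137 with the size factors of DESeq2, 3011 with DESeq2 itself, 10682 with the 6 samples alone and 8006 among loci whose mean reached 100 counts in a size group. With 1 sample left out they came to 44 (without Medium 5) to 72318 (without Medium 8), with 95 without Small 1, 12843 without Small 2, 193 without Small 4 and 56 without Medium 6. Calls of named miRNA on the CPM scale came to 41 with TMM over all loci, to 37 with the size factors of DESeq2 and to 17 (without Medium 5) to 231 (without Medium 8) with 1 sample left out, and 0 of them were higher in medium follicles under each alternative.

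Scaling by all counted reads in place of the set put every family median below 0. The medians were then -2.93 for miR-335 and the DLK1-DIO3 group, -2.90 for the mesenchymal list, -2.89 for miR-29 and miR-101, -2.30 for the miR-532 cluster, -2.22 for miR-17-92, -2.18 for the granulosa list, -2.13 for miR-15, miR-16 and miR-103, -2.07 for miR-2284 and miR-2285, -2.06 for miR-130 and miR-148, -1.97 for the liver and gut list, -1.92 for miR-26, -1.76 each for miR-181 and for miR-23, miR-24 and miR-27, -1.70 for the epithelial list, -1.62 for miR-10 and miR-125, -1.59 for the multiciliated list, -1.58 for miR-30, -1.54 for let-7, -1.34 for the blood list and -0.58 for the miR-424 cluster. The direction was reversed in let-7f (-1.49), miR-2284x (-1.40), miR-191 (-1.20), miR-450b (-1.004), miR-34c (-0.90), let-7d-3p (-0.68), miR-22-3p (-0.66), miR-195-3p (-0.64), miR-484 (-0.49), miR-132 (-0.42), miR-331-3p (-0.38), miR-30f (-0.34), miR-328 (-0.28), miR-424-3p (-0.20), miR-450a (-0.17 and -0.20), miR-1343-3p (-0.12) and miR-204 (-0.0515). Of the 59 loci chosen for naming, 36 were below 0 within the set and passed the threshold only on the CPM scale, all lower. The locus of let-7f on chromosome X, above 0 within the set, also passed it as lower on the CPM scale alone. Over all named loci, 160 passed on the CPM scale and not within the set, all lower.

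With 3 samples a group, an exact test of a share cannot go below 0.1, and depth limits the miRNAs of few counts such as miR-150 and miR-410. RNA input, vesicle number and the collection day of each sample are not given in the sources used here, and their part in these differences was not tested.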
